A study of Mus musculus with 16 samples.

Results

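The zonation markers described here were 10 genes taken from a fixed list of names, 7 pericentral (Glul, Axin2, Lgr5, Tbx3, Rhbg, Oat and Slc1a2) and 3 periportal (Cyp2f2, Hal and Hsd17b13), out of 17410 genes with values in the livers. All 10 were listed in each of the 16 liver tables, and all 10 passed the filter on low counts in each comparison. The livers came from a study of ChREBPα, an isoform of the carbohydrate-sensing transcription factor encoded by Mlxipl, and formed 4 groups of 4. Mice of the groups WT_NASH (livers 17 to 20) and LKO_NASH (livers 21 to 24) all carried the Chrebpα-flox/flox alleles and all ate a NASH diet for 12 weeks, with 40% of the energy as fat from palm oil, 20% as fructose, and 2% cholesterol. The WT_NASH mice were injected with AAV-TBG-GFP and therefore kept the floxed alleles, and the LKO_NASH mice with AAV-TBG-Cre. TBG is a promoter of hepatocytes, so cells of the liver other than hepatocytes were not the target of the deletion. Wildtype mice made up Ad_GFP_HFLMCD (livers 9 to 12, adenovirus with GFP) and Ad_Chrebpa_HFLMCD (livers 13 to 16, adenovirus with Chrebpα). From 2 months of age these mice ate for 3 weeks the HFLMCD diet, which had 45% of the energy as fat, no choline and 0.1% methionine, and the virus was given 1 week before the livers were taken. The sources used here do not give the age of the NASH-diet mice.

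The liver lobule is organised along the blood flow from the portal tracts to the central vein. Wnt ligands and R-spondins from endothelial cells at the central vein activate β-catenin in the neighbouring hepatocytes, which then express pericentral genes such as glutamine synthetase, while periportal hepatocytes carry out gluconeogenesis, urea synthesis and the breakdown of several amino acids. The pericentral markers hold the Wnt feedback scaffold Axin2, the R-spondin receptor Lgr5 and the transcriptional repressor Tbx3, all known as Wnt targets, and genes of nitrogen handling, which are Glul (glutamine synthetase), Rhbg (an ammonium transporter), Slc1a2 (a glutamate transporter) and Oat (ornithine aminotransferase). The periportal markers are Cyp2f2 (a cytochrome P450), Hal (histidine ammonia-lyase, the first enzyme of histidine breakdown) and Hsd17b13 (an enzyme of the lipid droplet surface). Bulk liver RNA holds all zones mixed, so fewer cells of a zone and less RNA per cell cannot be told apart.

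The promoters of 5 markers are shown. Of these, 4 turn up in the differences below (Slc1a2, Cyp2f2, Hal and Hsd17b13) and Glul is the textbook gene of the pericentral zone. The promoters of Axin2, which also turns up below, and of Oat were searched but are not printed. Each run is the 250 bases before the RefSeq transcription start in build GRCm38.p6, and entries were matched for 7 of the 10 markers. The windows are chr1:153899679-153899928 (Glul, plus strand), chr2:102706188-102706437 (Slc1a2, plus), chr7:27119705-27119954 (Cyp2f2, plus), chr10:93488518-93488767 (Hal, plus) and chr5:103977389-103977638 (Hsd17b13, minus). Capitals mark matches, on either strand, of the TCF/LEF core CTTTGA, which β-catenin's partner factors bind, and of the TATA box TATAAA.
Glul: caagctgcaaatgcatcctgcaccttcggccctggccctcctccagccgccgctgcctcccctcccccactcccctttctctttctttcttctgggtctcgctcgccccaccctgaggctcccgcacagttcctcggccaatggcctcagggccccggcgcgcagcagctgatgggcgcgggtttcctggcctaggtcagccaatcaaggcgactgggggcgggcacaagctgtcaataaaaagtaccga
Slc1a2: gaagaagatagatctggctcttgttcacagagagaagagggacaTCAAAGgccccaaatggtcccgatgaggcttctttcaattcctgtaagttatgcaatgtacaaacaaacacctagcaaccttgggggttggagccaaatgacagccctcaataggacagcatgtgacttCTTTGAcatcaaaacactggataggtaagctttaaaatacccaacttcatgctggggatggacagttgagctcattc
Cyp2f2: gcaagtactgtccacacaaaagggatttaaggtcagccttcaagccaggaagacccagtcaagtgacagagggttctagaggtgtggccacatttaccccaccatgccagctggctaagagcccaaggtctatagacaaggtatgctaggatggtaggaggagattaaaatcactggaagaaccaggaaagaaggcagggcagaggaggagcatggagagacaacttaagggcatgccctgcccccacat
Hal: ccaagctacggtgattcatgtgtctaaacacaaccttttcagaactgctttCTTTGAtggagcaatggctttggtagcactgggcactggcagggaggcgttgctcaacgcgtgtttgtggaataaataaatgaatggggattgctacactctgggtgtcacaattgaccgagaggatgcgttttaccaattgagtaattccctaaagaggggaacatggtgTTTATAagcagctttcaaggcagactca
Hsd17b13: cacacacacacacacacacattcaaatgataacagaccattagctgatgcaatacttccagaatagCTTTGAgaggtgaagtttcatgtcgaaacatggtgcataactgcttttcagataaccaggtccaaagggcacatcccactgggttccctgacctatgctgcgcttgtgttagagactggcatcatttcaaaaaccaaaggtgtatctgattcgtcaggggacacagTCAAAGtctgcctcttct

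Among 32851 RefSeq windows of this length, 13.8% held CTTTGA, 3.21% its longer form CTTTGAT, 12.4% TATAAA and 6.02% the E-box CACGTG, the core of the sites that ChREBP binds. The windows of Slc1a2 and Hsd17b13 each held 2 matches of CTTTGA and that of Hal held 1. The matches lay at bases -206 to -201 and -77 to -72 from the start of Slc1a2, at -199 to -194 of Hal, and at -184 to -179 and -18 to -13 of Hsd17b13. The first Slc1a2 match and the Hal match overlapped the longer form. TATAAA was found on the opposite strand at -28 to -23 of Hal. The windows of Glul, Axin2, Oat and Cyp2f2 held none of these letters, and CACGTG was in none of the 7 windows. Windows with and without a match were found among both kinds of marker.

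The libraries held 21254937 to 40327264 expected counts, the estimated reads per gene summed over genes. Levels are given as FPKM, a level scaled to both the length of the gene's transcript and the size of the library. The 8 hepatocyte markers summed to 49300 to 70700 FPKM in every liver, so the genes that define hepatocytes were abundant in each. Mlxipl itself was at 47.5 to 100 FPKM in LKO_NASH and 50.1 to 80.4 in WT_NASH livers (log2 fold change 0.05, adjusted p = 0.916), and at 44.7 to 47.8 in Ad_Chrebpa_HFLMCD and 39.0 to 48.5 in Ad_GFP_HFLMCD livers (0.15, adjusted p = 0.241). For the deletion this total over isoforms tests the labels weakly, because the sources used here do not say which part is floxed. For the adenovirus a rise of Mlxipl was not seen in the gene's total (95% interval of the log2 fold change -0.02 to 0.31), so this check does not bear out the label Ad_Chrebpa_HFLMCD, and directions drawn from it are those of livers so labelled. On the first principal component of the NASH livers, LKO_NASH liver 21 lay at -27.09, among the WT_NASH livers (-41.68 to 3.02) and away from the other LKO_NASH livers (28.57 to 35.41). Liver 14 lay at 10.27, between the other Ad_Chrebpa_HFLMCD livers (24.06 to 28.09) and the Ad_GFP_HFLMCD livers (-23.27 to -21.26). Results are therefore also given without livers 21 and 14. Both were picked for lying nearer the other group in these same data, so calls gained without them are no independent support.

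**Figure D1:**
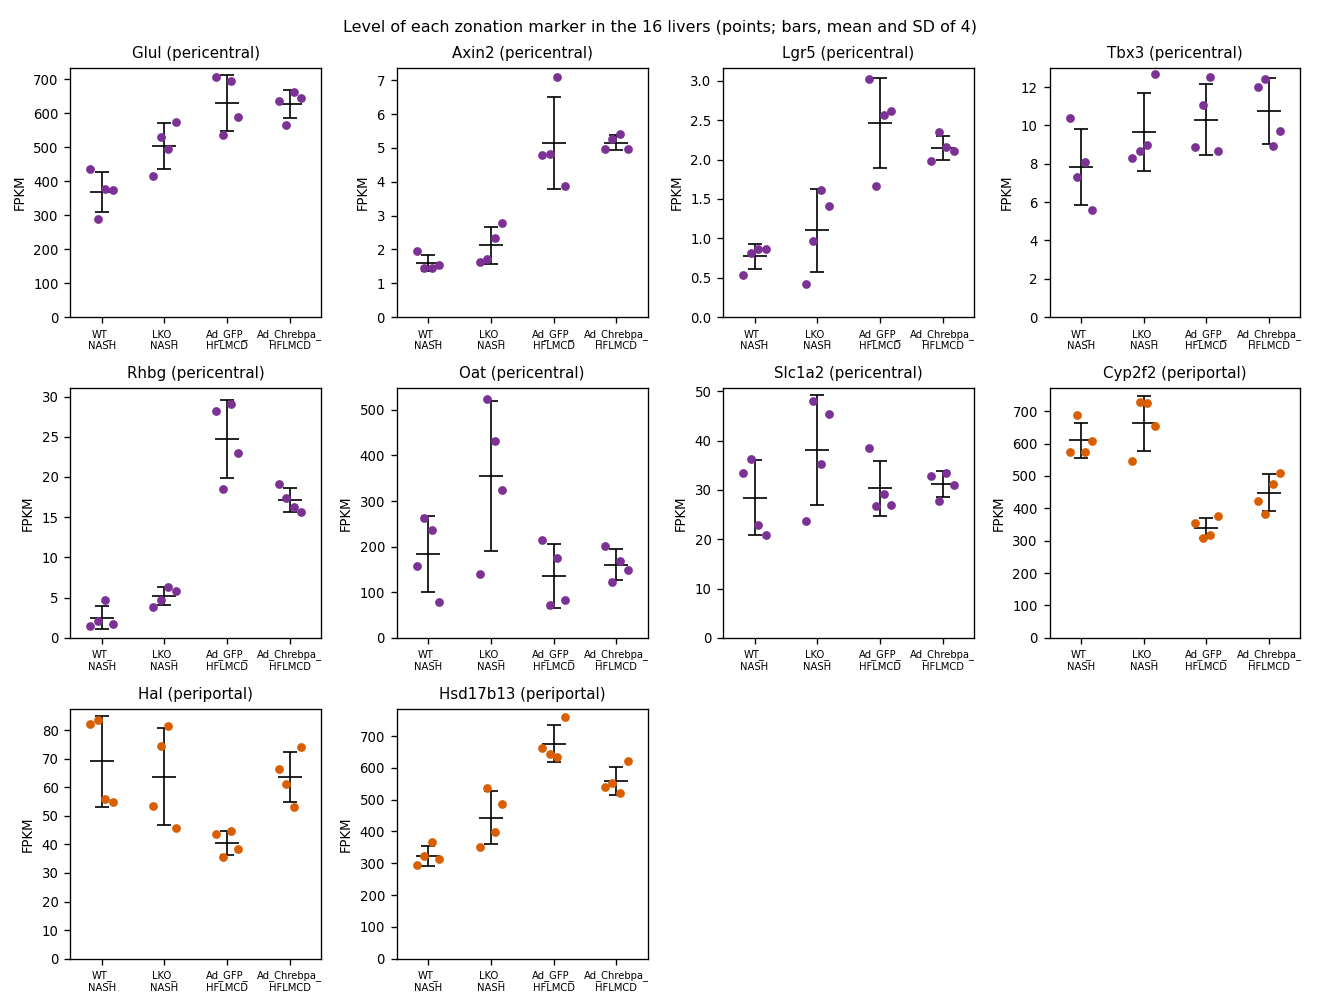
Level of each zonation marker in FPKM (vertical axes, linear, from 0) in the 4 groups (horizontal axes). Points are the livers in the order of their numbers, the long bar is the mean and the capped line the SD of 4 livers. Axin2, Lgr5 and Rhbg were lowest in both NASH-diet groups, and Hsd17b13 was highest in Ad_GFP_HFLMCD.

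Per length of transcript, Glul, Hsd17b13 and Cyp2f2 were at 289.76 to 761.27 FPKM over the 16 livers, Oat at 72.36 to 524.14, and Lgr5 and Axin2 at 0.42 to 7.09. The span from the lowest to the highest liver was 19.2-fold for Rhbg, 7.24-fold for Oat, 7.19-fold for Lgr5 and 4.92-fold for Axin2. For the other 6 markers it was 2.26-fold to 2.6-fold. Rhbg, Lgr5 and Axin2 separated mainly by experiment, whereas Oat varied within every group, with a coefficient of variation of 20.9% to 51.2%.

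Of the Wnt targets, Axin2 had 1.95, 1.45, 1.44 and 1.54 FPKM in WT_NASH livers 17 to 20, and 1.64, 1.72, 2.35 and 2.77 in LKO_NASH livers 21 to 24. In Ad_GFP_HFLMCD livers 9 to 12 it had 4.78, 4.83, 7.09 and 3.88, and in Ad_Chrebpa_HFLMCD livers 13 to 16 it had 4.96, 5.27, 5.42 and 4.97. Every NASH-diet liver was below every HFLMCD-diet liver, and the groups within a diet overlapped. Separation by experiment was common, since 73.4% of 13488 genes did not overlap in FPKM between WT_NASH and Ad_GFP_HFLMCD. Lgr5 had 0.53, 0.81, 0.87 and 0.87 FPKM in WT_NASH and 0.42, 0.97, 1.61 and 1.41 in LKO_NASH livers. Its levels were 3.02, 1.66, 2.56 and 2.61 in Ad_GFP_HFLMCD and 1.98, 2.35, 2.16 and 2.11 in Ad_Chrebpa_HFLMCD livers. Lgr5 therefore separated the diets as Axin2 did, with LKO_NASH liver 21 the lowest of all. Relative to the mean, its spread was widest in LKO_NASH (1.1 ± 0.528, SD, n = 4, coefficient of variation 47.9%). The SD itself was larger in Ad_GFP_HFLMCD (2.46 ± 0.573, coefficient of variation 23.3%). Tbx3 stayed within 5.59 to 12.66 FPKM, and its means in ascending order, 7.84 ± 1.99 in WT_NASH, 9.65 ± 2.03 in LKO_NASH, 10.3 ± 1.85 in Ad_GFP_HFLMCD and 10.8 ± 1.7 in Ad_Chrebpa_HFLMCD, had overlapping ranges at each step.

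Of the nitrogen-handling markers, Glul had 435.36, 289.76, 375.82 and 373.08 FPKM in WT_NASH and 415.44, 529.36, 493.91 and 573.63 in LKO_NASH livers. It had 705.22, 535.53, 693.94 and 587.79 in Ad_GFP_HFLMCD and 635.72, 566.00, 663.38 and 644.06 in Ad_Chrebpa_HFLMCD livers. Only liver 21 among the LKO_NASH livers was within the WT_NASH range, and all WT_NASH livers were below all HFLMCD-diet livers. This separation of Glul holds for FPKM. In the count-based fit given below, WT_NASH against Ad_GFP_HFLMCD had a log2 fold change of -0.15 for Glul, which was not called. Rhbg, which moves ammonium across the membrane, had 1.51, 2.11, 4.71 and 1.78 FPKM in WT_NASH and 3.86, 4.76, 6.32 and 5.82 in LKO_NASH livers. In Ad_GFP_HFLMCD it had 28.17, 18.54, 29.05 and 23.04, and in Ad_Chrebpa_HFLMCD 19.08, 17.42, 16.31 and 15.60. WT_NASH liver 19 was above LKO_NASH liver 21 and so made those groups overlap, and Ad_GFP_HFLMCD liver 10 was below Ad_Chrebpa_HFLMCD liver 13 and did the same there. All NASH-diet livers were far below all HFLMCD-diet livers for Rhbg. Beside Glul and Rhbg, 73.4% of all tested genes did not overlap between WT_NASH and Ad_GFP_HFLMCD.

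Oat, which converts ornithine to a precursor of glutamate, had 156.67, 263.21, 236.83 and 79.66 FPKM in WT_NASH and 139.55, 524.14, 432.14 and 324.37 in LKO_NASH livers. In Ad_GFP_HFLMCD it had 214.32, 72.36, 175.73 and 82.53, and in Ad_Chrebpa_HFLMCD 202.01, 122.43, 168.60 and 149.24. Livers 22 to 24 were the 3 highest of all 16 for Oat, and liver 21 was in the WT_NASH range. Slc1a2 had 33.45, 36.29, 22.99 and 20.84 FPKM in WT_NASH and 23.70, 48.01, 35.17 and 45.48 in LKO_NASH livers, with 38.53, 26.70, 29.24 and 26.93 in Ad_GFP_HFLMCD and 32.75, 27.68, 33.53 and 30.99 in Ad_Chrebpa_HFLMCD. Its ranges overlapped between all neighbouring groups, and the transcript length the authors used for it varied from 4781.97 to 7062.78 bases between livers, which enters its FPKM but not its counts.

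Of the periportal markers, Cyp2f2 had 353.88, 307.24, 318.76 and 375.86 FPKM in Ad_GFP_HFLMCD and 421.88, 381.66, 475.88 and 510.34 in Ad_Chrebpa_HFLMCD livers. It had 574.09, 687.82, 572.46 and 606.34 in WT_NASH and 546.01, 726.89, 725.41 and 653.82 in LKO_NASH livers. Its order was thus Ad_GFP_HFLMCD, Ad_Chrebpa_HFLMCD and the NASH-diet groups, with no overlap between the first 3 in order of the mean and an overlap of the last pair. Hal had 43.76, 35.75, 44.55 and 38.29 FPKM in Ad_GFP_HFLMCD and 66.32, 61.04, 53.04 and 74.04 in Ad_Chrebpa_HFLMCD livers. In WT_NASH it had 82.09, 83.36, 55.81 and 54.94, and in LKO_NASH 53.37, 74.26, 81.43 and 45.68. The Ad_GFP_HFLMCD livers were the lowest 4 for Hal, and the other groups overlapped. Hsd17b13 ran the other way, with 662.2, 644.66, 635.92 and 761.27 FPKM in Ad_GFP_HFLMCD, 539.03, 551.30, 519.99 and 620.96 in Ad_Chrebpa_HFLMCD, 293.11, 321.95, 367.19 and 312.16 in WT_NASH, and 351.18, 537.13, 399.19 and 486.72 in LKO_NASH livers. Its Ad_GFP_HFLMCD livers were above all others, and the neighbouring ranges below them overlapped. Of all tested genes, 73.4% did not overlap between WT_NASH and Ad_GFP_HFLMCD, and 19.4% between the adenovirus groups.

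The deletion comparison asked how the markers differed between livers with and without hepatocyte Cre on the NASH diet. None of the 10 markers was called, and none had ranges that did not overlap. In this comparison edgeR's quasi-likelihood test with Benjamini-Hochberg adjustment over 12786 genes called 0.0% of genes higher and 0.0% lower at an adjusted p below 0.05, with 7.6% of genes not overlapping in FPKM. The lowest adjusted p of any gene was 0.242 and 1737 genes had an unadjusted p below 0.05. DESeq2 called 90 genes higher and 68 lower, none of them a marker, and limma-voom 0.

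All 7 pericentral markers nevertheless had positive log2 fold changes, from 0.14 for Tbx3 to 0.88 for Rhbg, with a median of 0.29 against 0.01 over all genes, of which 51.5% were positive. The fold change of Rhbg was 0.88 ± 0.34 (SE, 95% interval 0.12 to 1.64, adjusted p = 0.356). Oat had 0.78 ± 0.45 (adjusted p = 0.44), Lgr5 0.36 ± 0.36 (adjusted p = 0.62), Glul 0.29 ± 0.16 (adjusted p = 0.418) and Axin2 0.25 ± 0.19 (adjusted p = 0.523). Slc1a2 was at 0.15 and Tbx3 at 0.14 (adjusted p = 0.748 and 0.74). None passed the correction over all genes. On log2(FPKM + 1) the 7 were also positive, with a median of 0.40 against 0.10 over all genes. The periportal markers had -0.03 for Cyp2f2, -0.27 for Hal and 0.30 for Hsd17b13, with adjusted p from 0.389 to 0.918. Without liver 21 all 7 pericentral markers were again positive, with a median of 0.36, and still none was called (Rhbg 0.98, adjusted p = 0.116, Oat 1.04, adjusted p = 0.123, Lgr5 0.62, adjusted p = 0.117). Over the 8 fits that each left out 1 liver, 6 or 7 of the 7 were positive (6 without liver 20), with medians from 0.18 to 0.38.

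Of 25 other pericentral hepatocyte genes, 19 were positive and 0 called, with a median of 0.24. The 2 with the lowest p were the cytochrome P450 Cyp2c38 (31.2 ± 9.49 FPKM in LKO_NASH against 14.5 ± 6.77, log2 fold change 0.97, adjusted p = 0.343) and the organic cation transporter Slc22a3 (2.2 ± 0.777 against 1.09 ± 0.289, 0.85, adjusted p = 0.343). Of 25 other periportal genes, 8 were positive, 17 negative and 0 called, with a median of -0.14. The steroid hydroxylase Cyp17a1 had 2.06 (8.3 ± 8.32 FPKM in LKO_NASH against 1.8 ± 0.784, adjusted p = 0.356). With 1 liver left out, its fold change ranged from 1.1 to 2.42. Cps1, which starts the urea cycle, had -0.62 (adjusted p = 0.357). Without liver 21, 21 of the pericentral and 10 of the periportal genes were positive, and 1 of each passed, the pericentral Cyp7a1, the rate-limiting enzyme of bile acid synthesis (1.25, adjusted p = 0.028, against 0.89 and 0.457 with all livers), and Cyp17a1 (2.42, adjusted p = 0.0461). Of the markers of other cell types 0 were called. All 10 macrophage markers were positive and 0 called, at a summed 66.8 to 175 FPKM in LKO_NASH against 52.9 to 109 in WT_NASH. The 10 central vein and sinusoidal endothelial markers summed to 63.9 to 108 against 48.9 to 67.9, with 9 positive, and 7 of 8 hepatocyte markers were negative, at 52100 to 62000 against 60700 to 70700. The 9 stellate cell and fibroblast markers summed to 123 to 186 against 101 to 136, the 9 of T, NK and B cells to 6.1 to 10.2 against 3.8 to 4.82, and the 9 of cholangiocytes to 29.2 to 62.5 against 23.6 to 45.8. Of these 8 of 9, 5 of 5 tested and 2 of 7 tested were positive, so the cholangiocyte markers had mostly negative fold changes on counts. No marker of the 6 cell type lists was at 0 in all livers of a group. Their part in the marker values was not tested.

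**Figure D2:**
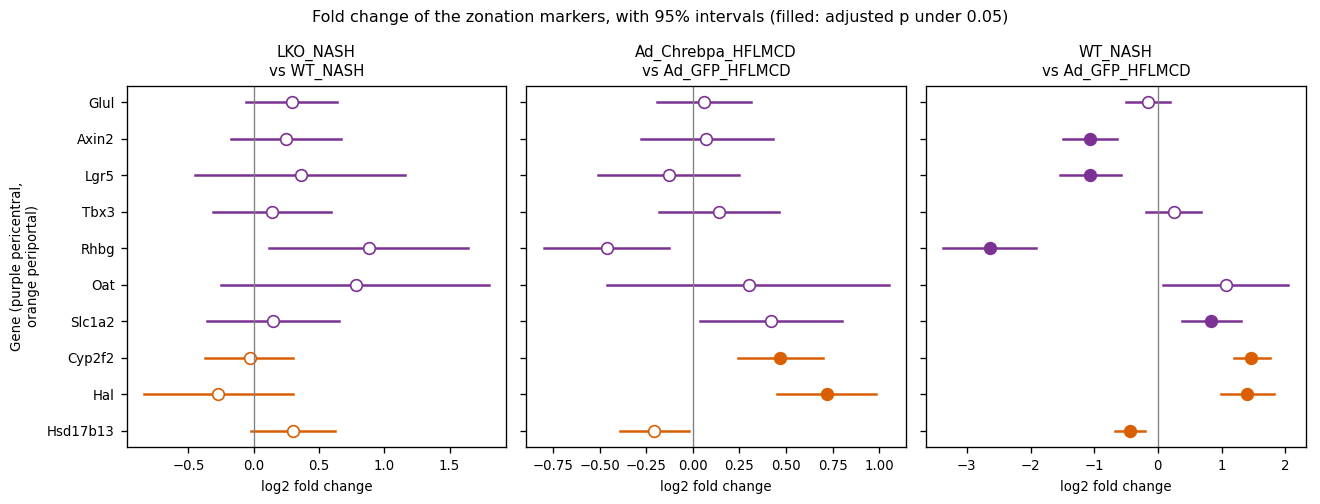
Log2 fold changes of the 10 markers (horizontal axes, with a different scale in each panel) in the 3 comparisons, with 95% intervals from edgeR. Filled points had an adjusted p below 0.05. No point is filled for the deletion, 2 are for the adenovirus (Cyp2f2 and Hal), and 7 for the comparison of the control groups.

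The adenovirus comparison asked how the markers differed between the livers labelled as given Chrebpα adenovirus and those given GFP adenovirus, in which the total of Mlxipl did not pass the test. The periportal markers Cyp2f2 and Hal rose and no pericentral marker was called in either direction. Thus 2 of 10 markers were higher and 0 lower, where 4.95% of 13658 genes were called higher and 3.18% lower. The markers were chosen with earlier results of these data known, so these shares are a description and not a test. The ranges of 3 markers, Cyp2f2, Hal and Hsd17b13, did not overlap, beside 19.4% of all genes. Over all genes 676 were called higher and 434 lower on counts, and 406 and 992 on log2(FPKM + 1).

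Hal rose 0.72 ± 0.12 on the log2 scale (mean 63.6 ± 8.84 FPKM against 40.6 ± 4.26, SD, n = 4 each, adjusted p = 0.0092). It passed without each single liver, liver 14 included (0.74, adjusted p = 0.00944), and missed the threshold when all 16 livers shared 1 fit (0.73, adjusted p = 0.0821). Cyp2f2 rose 0.47 ± 0.11 (447 ± 57 FPKM against 339 ± 31.6, adjusted p = 0.0271). Its call was closer to the threshold: without liver 14 it passed (0.54, adjusted p = 0.00934), but it did not without liver 10 (0.41, adjusted p = 0.0514), liver 11 (0.45, 0.0724), liver 13 (0.48, 0.0552), liver 15 (0.45, 0.0644) or liver 16 (0.40, 0.075), nor with all 16 livers in 1 fit (0.48, 0.0562) or on log2(FPKM + 0.1) (0.40, 0.061). Hsd17b13 was at -0.21 ± 0.08 (558 ± 44 against 676 ± 57.9 FPKM, adjusted p = 0.145), opposite in sign to the other 2 periportal markers.

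Among the pericentral markers, Rhbg was at -0.46 ± 0.15 (17.1 ± 1.52 against 24.7 ± 4.89 FPKM, adjusted p = 0.084). It passed in DESeq2 (adjusted p = 0.0285) and without liver 10 (-0.59, adjusted p = 0.019). Slc1a2 was at 0.42 ± 0.17 (adjusted p = 0.149) and passed without liver 9 (0.60, adjusted p = 0.0376) or liver 14 (0.54, adjusted p = 0.0496). On log2(FPKM + 1), which takes in the varying transcript length, limma put Slc1a2 at 0.05 (adjusted p = 0.792). Its means were 31.2 ± 2.6 against 30.4 ± 5.57 FPKM. Glul (0.06), Axin2 (0.07), Lgr5 (-0.13), Tbx3 (0.14) and Oat (0.30) had adjusted p from 0.569 to 0.807. The median of the 7 pericentral markers was 0.07, near the -0.01 of all genes. The 95% interval of the difference was -0.19 to 0.31 for Glul and -0.46 to 1.05 for Oat.

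Of the 25 other periportal genes, 7 rose and 1 fell, with a median of 0.23, whereas 2 of the 25 other pericentral genes rose and 0 fell, with a median of 0.00. On log2(FPKM + 1) the counts were 5 higher and 1 lower of the periportal and 1 higher and 2 lower of the pericentral genes. The 3 risen periportal genes with the lowest p were Pigr, the receptor that carries immunoglobulin A into bile (314 ± 39.2 against 237 ± 2.64 FPKM, log2 fold change 0.48, adjusted p = 0.0104), the phospholyase Etnppl (0.87, adjusted p = 0.0145) and the steroid dehydrogenase Hsd17b6 (0.97, adjusted p = 0.0174). The epithelial cadherin Cdh1 fell by 0.44 (adjusted p = 0.0451), a call that was lost without any of the single livers except 14. The pericentral genes that rose were Cyp27a1, a sterol hydroxylase (160 ± 6.85 against 124 ± 6.2 FPKM, 0.44, adjusted p = 0.00534), and Znrf3, a ubiquitin ligase that removes Wnt receptors (0.47, adjusted p = 0.0466). Znrf3 lost its call without liver 9 (adjusted p = 0.0909), 10 (0.0513), 12 (0.0894), 13 (0.0896), 14 (0.0691), 15 (0.0758) or 16 (0.104). Leaving out 1 liver moved the count of risen periportal genes from 3 to 9 (9 without liver 14), and with all 16 livers in 1 fit it was 1. In that fit Cyp27a1, Pigr, Etnppl and Hsd17b6 kept their direction with adjusted p from 0.064 to 0.278. Cdh1 and Znrf3 missed the threshold there too (adjusted p = 0.594 and 0.155). Znrf3 also missed it on log2(FPKM + 1) (0.0529) and log2(FPKM + 0.1) (0.0664). Of 5 midlobular genes 1 rose, Igfbp2, a binding protein of insulin-like growth factors (751 ± 120 against 506 ± 93.6 FPKM, 0.63, adjusted p = 0.0384), which lost its call without liver 9, 11, 12, 13, 14 or 16 (adjusted p from 0.053 to 0.0921). Igfbp2 also lost it on log2(FPKM + 0.1) (0.0662) and with all 16 livers in 1 fit (0.143). Beside these, 5 of 9 cholangiocyte markers fell, at a summed 103 to 152 against 127 to 297 FPKM, among them the bile duct keratin Krt19 (-1.22, adjusted p = 0.00799), and 2 of 8 hepatocyte markers rose. The T, NK and B cell markers summed to 13.6 to 34.8 against 8.41 to 15.3 FPKM, with 1 of 9 higher. Of 10 macrophage markers 1 was higher, and the summed ranges overlapped between the groups for the markers of all 6 cell types. Their part in the periportal values was not tested.

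**Figure D3:**
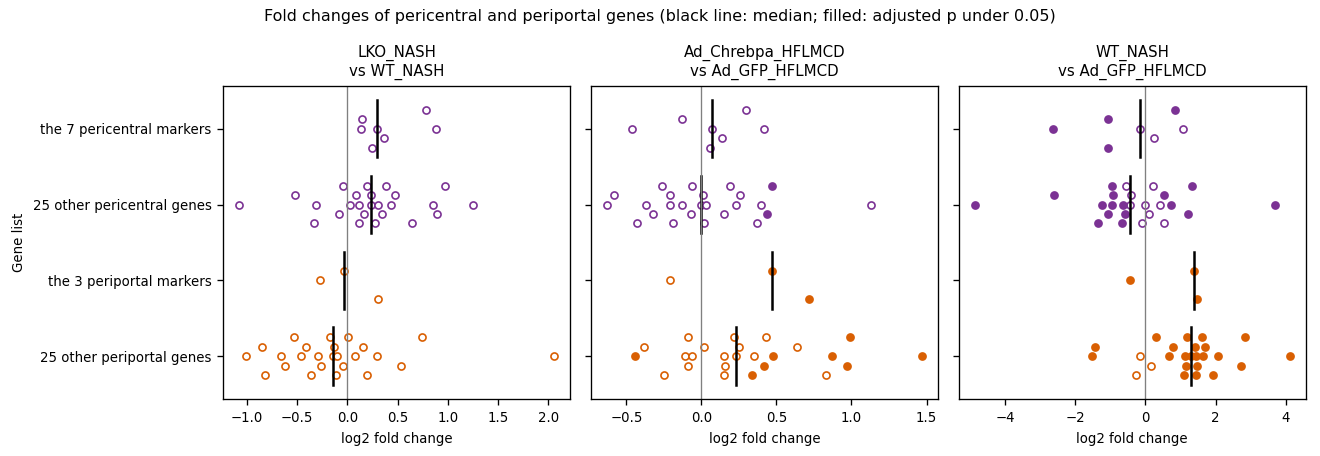
Log2 fold changes (horizontal axes, with a different scale in each panel) of the pericentral genes in purple and the periportal genes in orange, markers and other listed genes in separate rows, with no meaning in the vertical offset within a row. Filled points had an adjusted p below 0.05 and black lines are medians. The medians of the other listed genes were 0.24 and -0.14 for the deletion, 0.00 and 0.23 for the adenovirus, and -0.43 and 1.30 for the control groups.

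Of 4 further enzymes of histidine, 2 rose beside Hal. Amdhd1, which acts after urocanate is hydrated, rose (53.3 ± 7.24 against 34.5 ± 3.96 FPKM, log2 fold change 0.70, adjusted p = 0.0105), and so did Uroc1, the urocanate hydratase (0.34, adjusted p = 0.0494). The call of Uroc1 was lost without livers 9 to 13 or 16 left out one at a time (adjusted p from 0.053 to 0.115), without a filter (0.0515), in limma-voom (0.0506), on log2(FPKM + 1) (0.0748), on log2(FPKM + 0.1) (0.0983) and with all 16 livers in 1 fit (0.545). All 4 genes were positive in every setting run. Around the glutamine and ornithine enzymes, 1 of 19 tested genes rose and 2 fell. The amino acid transporter Slc38a4 rose by 0.74 (adjusted p = 0.0118), the transporter Slc1a4 fell by 1.10 (2.41 ± 0.2 against 5.4 ± 0.999 FPKM, adjusted p = 0.00319), and glutamate dehydrogenase Glud1 fell by 0.32 (adjusted p = 0.0109). Amdhd1 and Glud1 missed the threshold with all 16 livers in 1 fit (adjusted p = 0.099 and 0.0606). Of the Hsd17b family 1 of 9 tested genes rose, which was Hsd17b6.

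Of the 39 tested genes of the 4 Wnt lists 2 rose and 1 fell in the adenovirus comparison, where 4.95% of all genes were called higher and 3.18% lower. Of 9 tested ligands and secretion genes 1 fell, Wnt5a (0.49 ± 0.0365 against 0.782 ± 0.067 FPKM, -0.62, adjusted p = 0.0333). Of 9 receptors and co-receptors 1 rose, Fzd4 (6.19 ± 0.738 against 4.86 ± 0.692, 0.42, adjusted p = 0.0416), and of 16 members of the intracellular chain 0 were called. Wnt5a lost the call without any single liver other than 14 (adjusted p from 0.0564 to 0.1), and Fzd4 without liver 9, 11, 12, 13, 15 or 16 (0.0731 to 0.107). With all 16 livers in 1 fit Wnt5a and Fzd4 missed the threshold too (adjusted p = 0.132 and 0.481). Fzd4 also missed it on log2(FPKM + 1) (0.0816) and log2(FPKM + 0.1) (0.099). The chain genes with the lowest p were Dvl1 (-0.23, adjusted p = 0.102) and Dvl2 (0.19, adjusted p = 0.305), both relays below the receptors. Of 5 tested inhibitors 1 rose, Sfrp5, at the low levels of 0.305 ± 0.128 against 0.035 ± 0.0129 FPKM (adjusted p = 0.00428). Rspo3, the R-spondin of the central vein, had 4.55 ± 0.6 against 4.79 ± 0.973 FPKM (0.00, adjusted p = 0.99), and Notum, a Wnt-removing enzyme, 19.3 ± 2.17 against 19.4 ± 2.55 (0.06, adjusted p = 0.797).

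In the deletion comparison 0 genes of the 4 Wnt lists were called. The lowest p there were those of Porcn, which lipidates Wnt ligands (-0.67, adjusted p = 0.305), Lgr4 (-0.36, adjusted p = 0.343), the receptor Fzd5 (-0.42, adjusted p = 0.356) and the factor Tcf7l1 (-0.27, adjusted p = 0.397). Wnt9b, a ligand of the central vein, was at 0.328 ± 0.0525 FPKM in LKO_NASH and 0.205 ± 0.0874 in WT_NASH livers (0.50, adjusted p = 0.429). Apc of the destruction complex had -0.13 (adjusted p = 0.468), and the inhibitors Wif1 and Dkk4 had -1.04 and -0.35 (adjusted p = 0.568 and 0.649). Porcn passed in DESeq2 (adjusted p = 0.0407) and with all 16 livers in 1 fit (0.0401). Around the nitrogen-handling markers, 0 of 19 tested genes were called. The glutamine transporter Slc38a2 had -0.66 (27.4 ± 4.27 against 39.1 ± 7.42 FPKM, adjusted p = 0.31) and passed in DESeq2 (0.0345) and without liver 21 (-0.80, 0.0405), and the ornithine carrier Slc25a15 had -0.28 (adjusted p = 0.411). Of the histidine genes, Hdc, which makes histamine, had -0.50 (adjusted p = 0.461; without liver 21 -0.93, adjusted p = 0.0314) and Ftcd 0.16 (adjusted p = 0.758). Of the Hsd17b family, Hsd17b7 had -0.36 (adjusted p = 0.358) and Hsd17b4 0.24 (adjusted p = 0.429). Of 5 midlobular genes 0 were called, with the major urinary protein gene Mup3 at -0.69 (adjusted p = 0.319; 0.0313 in DESeq2) and the hepcidin gene Hamp2 at 2.51 (34.9 ± 42.2 against 5.71 ± 6.36 FPKM, adjusted p = 0.388). Both have near-identical relatives, so their counts are uncertain.

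The control groups of the experiments, WT_NASH and Ad_GFP_HFLMCD, were compared to order the levels of the markers. Diet, its length, genotype and virus differed together here and cannot be told apart, and the comparison shares its livers with both others. In this comparison 28.2% of 13488 genes were called higher in WT_NASH and 30.9% lower, and 73.4% did not overlap, so calls were common. Of the 10 markers 3 were higher, 4 lower and 7 not overlapping. The count-based fit scales libraries to a common middle, and the median of all genes was -0.01. On log2(FPKM + 1) that median was -0.44, and 737 genes were higher and 9772 lower instead of 3805 and 4166.

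Rhbg fell by 2.64 ± 0.33 on the log2 scale (2.53 ± 1.48 FPKM in WT_NASH against 24.7 ± 4.89, adjusted p = 8.64e-05). Axin2 fell by 1.06 ± 0.19 (1.59 ± 0.241 against 5.14 ± 1.37, adjusted p = 0.000955) and Lgr5 by 1.06 ± 0.21 (0.77 ± 0.162 against 2.46 ± 0.573, adjusted p = 0.0019). All 3 were lower in every setting tried, also on FPKM. The periportal Cyp2f2 rose by 1.47 ± 0.13 (610 ± 54.1 against 339 ± 31.6 FPKM, adjusted p = 9.8e-06) and Hal by 1.40 ± 0.19 (69.0 ± 15.8 against 40.6 ± 4.26, adjusted p = 0.000138). Hsd17b13 fell by 0.44 ± 0.11 (324 ± 31.4 against 676 ± 57.9, adjusted p = 0.00595). On log2(FPKM + 1) Cyp2f2 was at 0.85, Hal at 0.73 and Hsd17b13 at -1.06. Their direction and calls were kept there, but the size depended on the scale. The lipid droplet enzyme thus differed in direction from the other periportal markers.

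The scale also mattered for the remaining pericentral markers. Slc1a2 was called higher on counts (0.84 ± 0.21, adjusted p = 0.00588) but was at -0.11 on log2(FPKM + 1) (adjusted p = 0.592), with means of 28.4 ± 7.62 and 30.4 ± 5.57 FPKM. Glul was at -0.15 ± 0.15 on counts (adjusted p = 0.416) and at -0.78 on log2(FPKM + 1) (adjusted p = 0.00061), with 369 ± 59.8 against 631 ± 82.6 FPKM. Against the median of all genes Slc1a2 stood above it and Glul below it on both scales. Oat was at 1.07 ± 0.44 (adjusted p = 0.0603), passing without liver 9 (1.38, adjusted p = 0.0305) or liver 20 (1.33, adjusted p = 0.015) and with all 16 livers in 1 fit (1.11, adjusted p = 0.0388), but was at 0.44 on log2(FPKM + 1) (adjusted p = 0.381). Tbx3 was at 0.25 ± 0.19 (adjusted p = 0.296), with -0.37 on log2(FPKM + 1) (adjusted p = 0.0756).

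Of the 25 other periportal genes 20 were higher and 2 lower in WT_NASH, with a median of 1.30. They included Asl of the urea cycle (255 ± 21.5 against 125 ± 4.89 FPKM, log2 fold change 1.65, adjusted p = 1.32e-06), Pck1 of gluconeogenesis (2.85, adjusted p = 1.31e-05) and the serine dehydratase Sds (2.74, adjusted p = 2.04e-05). Cdh1 fell by 1.43 (adjusted p = 0.00111) and the aldehyde dehydrogenase Aldh1b1 by 1.53 (adjusted p = 0.00155). Of the 25 other pericentral genes 5 were higher and 11 lower, with a median of -0.43. The Wnt feedback genes Rnf43 (3.56 ± 0.185 against 10.6 ± 1.42 FPKM, -0.95, adjusted p = 4.36e-05) and Nkd1 (-0.92, adjusted p = 0.000231) fell as Axin2 did, and so did the glutathione transferase Gstm3 (-4.87, adjusted p = 1.19e-05), one of a family of similar sequence whose counts are uncertain. The cytochromes Cyp27a1 (1.32, adjusted p = 2.9e-05), Cyp2c37 (3.69, adjusted p = 4.59e-05) and Cyp2e1 (1.22, adjusted p = 0.00236) were higher, so pericentral genes moved in both directions, though Cyp2e1 missed the threshold on log2(FPKM + 0.1) (0.54, adjusted p = 0.0558). On log2(FPKM + 1), 14 of the periportal genes were higher and 4 lower, and 3 of the pericentral genes higher and 18 lower. On that scale 737 of all 13488 tested genes were higher and 9772 lower, so lower calls were common among all genes.

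Of the Wnt genes in the control groups, 6 of 9 receptors were higher on counts, led by Lgr4 (1.12, adjusted p = 1.6e-05), Lrp6 (0.79, adjusted p = 9.98e-05) and Fzd4 (1.03, adjusted p = 0.000574). On log2(FPKM + 1) 1 receptor was higher and 3 lower, with Lrp6 at 0.14 (adjusted p = 0.16) and Fzd4 at 0.33 (adjusted p = 0.0814). Of 15 tested genes of the intracellular chain 4 were higher on counts, with Gsk3a at 0.41 (adjusted p = 0.000426), Apc at 0.33 (adjusted p = 0.00382) and Axin1 at 0.31 (adjusted p = 0.00689), whereas 14 were lower on log2(FPKM + 1), where these had -0.20, -0.23 and -0.28. The direction of this list thus rested on the scale. Of 9 ligand and secretion genes 3 were lower, Wls, which carries Wnt ligands to the cell surface (1.39 ± 0.368 against 5.99 ± 1.36 FPKM, -1.49, adjusted p = 0.000179), Wnt5a (-0.63, adjusted p = 0.0272) and Rspo3 (-0.45, adjusted p = 0.0388), and 1, Porcn, was higher (1.64, adjusted p = 2.73e-05). The calls of Wnt5a (without liver 10, 12, 17 or 19) and Rspo3 (without liver 9, 10, 11, 17, 18 or 20) were lost, with adjusted p up to 0.0707 and 0.109. Rspo3 also missed the threshold in limma-voom (adjusted p = 0.0598) and with all 16 livers in 1 fit (0.0505). Among inhibitors, Dkk4 was at 1.13 ± 0.324 FPKM in WT_NASH and 0.015 ± 0.01 in Ad_GFP_HFLMCD (adjusted p = 5.77e-06), while Sfrp1 fell by 1.70 (adjusted p = 8.78e-05) and Dkk3 by 1.09 (adjusted p = 0.00056).

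Of the genes around the nitrogen-handling markers, 11 of 19 were higher and 4 lower in WT_NASH on counts, and 4 higher and 9 lower on log2(FPKM + 1). They were led by Slc38a4 (1.57, adjusted p = 1.86e-05), the aspartate aminotransferase Got1 (154 ± 11.6 against 42.4 ± 16.2 FPKM, 2.47, adjusted p = 1.96e-05) and Slc38a2 (39.1 ± 7.42 against 21.3 ± 4.56 FPKM, adjusted p = 7.15e-05), with Slc1a4 (-1.87, adjusted p = 4.43e-05) and the proline synthesis gene Pycr1 (-1.37, adjusted p = 0.000331) lower. All 4 other histidine genes were higher on counts, with Hdc at 1.83 (adjusted p = 1.17e-05), Uroc1 at 1.09 (adjusted p = 0.000893) and Amdhd1 at 0.82 (adjusted p = 0.00201), and 1 of the 4 was called on log2(FPKM + 1). Of the Hsd17b family 7 of 9 were higher and 2 lower on counts, and 4 and 2 on log2(FPKM + 1), with Hsd17b6 at 1.61 (adjusted p = 4.45e-05) and Hsd17b1 at -1.53 (adjusted p = 0.00442). Hsd17b8 and Hsd17b11 both had 1.00 (adjusted p = 5.32e-05 and 0.000235), and Hsd17b7 had -0.37 (adjusted p = 0.0287), lost without liver 9, 11, 12, 18 or 19 and with all 16 livers in 1 fit (adjusted p from 0.0599 to 0.0761). Of 5 midlobular genes 3 were higher, Mup3 (3.47, adjusted p = 1.66e-06), the bile acid hydroxylase Cyp8b1 (2.47, adjusted p = 0.000858) and the hepcidin gene Hamp (1.18, adjusted p = 0.00425; 0.54 on log2(FPKM + 1), adjusted p = 0.0994). The counts of Mup3 and of the hepcidin genes are uncertain, as said above. Over all genes 30.9% were called lower and 28.2% higher. Of the cell type markers, 8 of 10 for macrophages were lower, at a summed 52.9 to 109 against 719 to 1050 FPKM. For stellate cells and fibroblasts 7 of 9 were lower, at 101 to 136 against 387 to 592. Lower too were 6 of 9 T, NK and B cell markers and 5 of 9 cholangiocyte markers. Only 2 of 10 endothelial markers were lower, with a median of -0.09. On counts 7 of 8 hepatocyte markers were higher. Their part in the marker values was not tested.

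**Figure D4:**
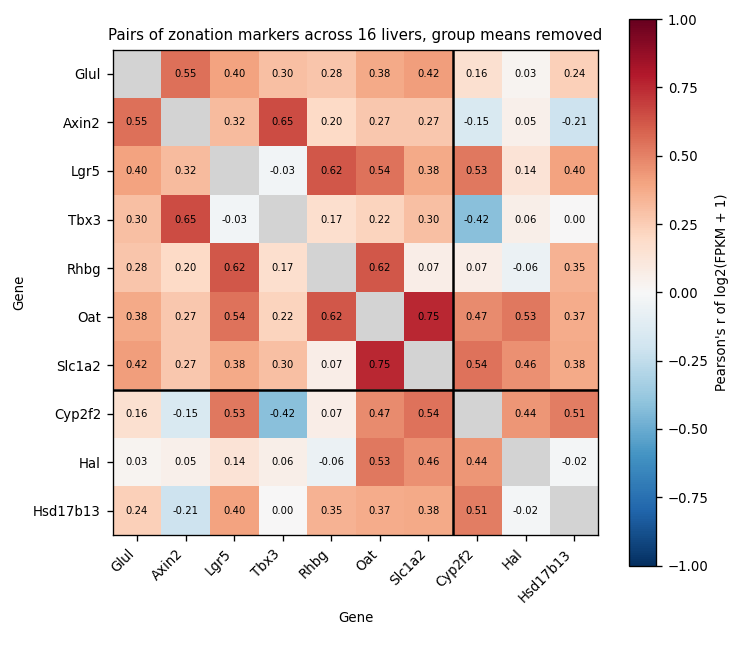
Pearson's r of log2(FPKM + 1) between each pair of markers over 16 livers after the group means were removed, with red for positive and blue for negative values and black lines between pericentral and periportal genes. Most pericentral pairs are positive, with Oat and Slc1a2 the highest at 0.75.

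Within groups, the markers of a zone varied together only in part. After subtraction of the group mean, 20 of 21 pericentral pairs had a positive correlation over the 16 livers, with a median r of 0.32, against 16 of 21 pericentral-periportal pairs (median 0.16) and 2 of 3 periportal pairs (median 0.44). Oat and Slc1a2 had the highest r (0.75, with 0.73 in the NASH and 0.85 in the HFLMCD livers), followed by Axin2 with Tbx3 (0.65). Tbx3 and Cyp2f2 had the lowest (-0.42). These are descriptions, since genes of a liver share its library, its depth and the cells it holds. The 3 genes most like each marker over the 16 livers, among 10877, were mostly outside the zonation lists. Oat was most like Ddt, D-dopachrome tautomerase (r = 0.91), followed by Lhpp (0.90), one of the listed pericentral genes, and Gm4737 (0.90). Axin2 was most like Pygo2 (0.84), a cofactor of β-catenin and one of the listed Wnt genes, then Trib1 (0.81) and D16Ertd472e (0.80). Rhbg was most like Atp5g3 (0.95), a subunit of the mitochondrial ATP synthase, then Anapc13 and Atp5e (both 0.93). Hal was most like Etnk2 (0.93), an ethanolamine kinase, then the coagulation factor gene F7 (0.88) and Ahcy (0.85), which splits S-adenosylhomocysteine. For Glul they were Chtop (0.84), Mrps11 (0.82) and Atg4b (0.80), and for Lgr5 Dnajb2, Shf and Sipa1l2 (0.90 each). For Tbx3 they were D17H6S53E (0.90), Fzr1 (0.81) and Tsku (0.78), and for Slc1a2 Npr2 (0.91), Dcaf11 (0.89) and Gnpnat1 (0.88). For Cyp2f2 they were Sh2d4a (0.86), Mcu (0.85) and Mrpl39 (0.84), and for Hsd17b13 Fam149b (0.92), Epn1 (0.90) and Fam193b (0.89). Within single groups of 4 the r of these genes varied, from -0.99 to 0.96 for Axin2 with Trib1, from -0.58 to 0.97 for Slc1a2 with Gnpnat1, from -0.26 to 0.99 for Glul with Chtop and from 0.85 to 0.99 for Hsd17b13 with Fam149b.

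Some markers lie over other genes in the RefSeq table: Glul over Mir8114, Lgr5 over A930009A15Rik, Tbx3 over Tbx3os1, and Slc1a2 over Gm13872 and LOC115489466. The sources used here do not say whether the counting used strand. Without it, reads of these genes and of the marker cannot be told apart.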

How the data were processed

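RNA of 16 livers was sequenced, and each table holds 1 library. The authors deposited expected counts, an estimate of the reads of each gene without normalisation, and FPKM, as named per the file headers. HISAT2 is named, without a version, per the submitters' processing notes; the sources used here give neither the counting program nor the genome build. The lowest listed FPKM was 0.01, and genes that a table did not list were set to 0. Of 17436 entries, 26 carried a transcript's name and were added to their gene. The replicate numbers, 9 to 24, are not stated outright to be separate animals, so the p-values reflect only the spread among these samples, which may be technical.

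After rounding, expected counts went into edgeR 4.0.16 under R 4.3.3 (two-sided quasi-likelihood F test after filterByExpr and TMM), with 1 fit per comparison of 8 livers and 3 comparisons. A gene was called when its Benjamini-Hochberg adjusted p over all tested genes was below 0.05. Biological coefficients of variation were 0.221 (deletion), 0.126 (adenovirus) and 0.164 (control groups). The alternatives were DESeq2 1.42.0 and its size factors within edgeR, limma-voom, limma 3.58.1 on the log2(FPKM + 1) and log2(FPKM + 0.1) of the deposited FPKM, an unfiltered fit, genes whose mean FPKM was at least 1, all 16 livers in 1 fit, and each liver left out.

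The members, the 10 pathway lists and the 6 cell type lists were chosen with earlier results of these data known. All members were named, with Mlxipl, the 3 genes most like each member, and from each list up to 3 genes called in each direction with the lowest adjusted p, or the 2 with the lowest p where none was called. One of the genes so chosen is not reported here. Krt19 and Cyp7a1 were named after their values were seen. In the adenovirus comparison Rspo3 and Notum were also named outside the rule above. Likeness is Pearson's r of log2(FPKM + 1) with group means removed, over genes averaging at least 1 FPKM. Motifs were searched in RefSeq promoters of GRCm38.p6. Python 3.11.15 with pandas 2.3.3 and NumPy 2.4.6 made the tables, and matplotlib 3.10.9 the plots.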

Additional observations from a re-analysis of the deposited data

Results flagged for a closer look

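Tbx3 in LKO_NASH liver 24 stood at 12.66 FPKM, apart from the other 3 livers of its group (8.28, 8.67 and 8.98), with a gap of 0.84 of the group's range, above Dixon's 95% critical value for 4 samples. It was the 1 such sample in the 40 groups of 4 examined (10 markers in 4 groups), where chance alone marks about 1 in 20 groups.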

How the results depend on the processing

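In the deletion comparison the number of markers called was 0 under every alternative run. The number of genes called was 90 higher and 68 lower with DESeq2, 86 and 66 with all 16 livers in 1 fit, and 0 to 166 higher and 0 to 254 lower with 1 liver left out (above 0 only without liver 21). In the adenovirus comparison 1102 genes were higher and 842 lower with DESeq2, 406 and 992 on log2(FPKM + 1), 314 and 723 on log2(FPKM + 0.1), and 236 and 100 with all 16 livers in 1 fit. With 1 liver left out, 263 to 937 genes were higher and 137 to 785 lower, with the highest counts without liver 14. By more than 1.5 times the counts moved without livers 11 (376 and 223), 12 (348 and 185), 13 (340 and 185), 14 (937 and 785, the lower count only), 15 (400 and 209) and 16 (263 and 137). The number of markers called there was 2, with 3 in DESeq2, 1 on log2(FPKM + 0.1), 0 with all 16 livers in 1 fit and 1 to 3 with 1 liver left out. In the comparison of control groups 737 genes were higher and 9772 lower on log2(FPKM + 1), and 726 and 9846 on log2(FPKM + 0.1), where the median of all genes was -0.44 and -0.60. On these 2 scales the sign of Slc1a2 turned to -0.11 and -0.12, of Gsk3a to -0.20 and -0.21, of Apc to -0.23 and -0.29, and of Axin1 to -0.28 and -0.32. The number of markers called there was 7 or 8 in all settings, but the markers were not always the same. In limma on log2(FPKM + 1) and log2(FPKM + 0.1), Glul was called (adjusted p = 0.00061 and 0.00103) and Slc1a2 was not (0.592 and 0.604). The causes were not tested. No paired analysis was possible because no groups share a replicate number. Low depth limits the precision of Lgr5, with 57 to 216 counts per liver in LKO_NASH and 70 to 167 in WT_NASH, and of Rhbg, with 80 to 364 in WT_NASH.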
